A study of Mus musculus with 20 samples.

Results

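Cytosolic heat shock proteins are the chaperones that fold and refold proteins outside the endoplasmic reticulum (ER). A set of 10 named genes was followed here, out of 24421 gene symbols counted. They were the HSP70 genes Hspa1a, Hspa1b and Hspa8, the HSP90 genes Hsp90aa1 and Hsp90ab1, the HSP110 gene Hsph1, the J-domain genes Dnajb1 and Dnaja1, the small heat shock gene Hspb1 and the HSP90 activator Ahsa1. All 10 were above the filter on low counts that left 14792 genes for testing. They were listed by name, with no threshold on a measured value.

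The 20 RNA libraries were of motor neurons differentiated from mouse stem cell lines, and the title of the study offers these lines as a model of amyotrophic lateral sclerosis. The line labelled NIL is described as spinal and the line labelled NIP as cranial. As background, lines of these names are programmed by inducible transcription factors, Neurog2 and Isl1 in both, with Lhx3 in NIL and Phox2a in NIP. Each line had 2 libraries without drug at 0 h, 12 h and 36 h, and 2 with 20 µM cyclopiazonic acid (CPA) at 12 h and at 36 h. CPA blocks SERCA, the pump that fills the ER with calcium, and was given to day 2 neurons to cause ER stress. The times of 12 h and 36 h are those of the titles. Other label text gives 6 h and 12 h for the same exposures. No genetic change other than the line was labelled, and the controls received no CPA. Whether replicates were separate cultures is not labelled. The p-values therefore cover the spread between these libraries alone, which may not be that of independent cultures. This spread holds a difference in cell-type markers between replicate numbers, described below.

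The heat shock response is run mainly by the transcription factor HSF1, which binds inverted repeats of GAA upstream of chaperone genes when unfolded protein builds up in the cytosol. Unfolded protein inside the ER is sensed by a separate system, the unfolded protein response, which raises ER chaperones through ATF6 and XBP1 at ER stress elements. The ER holds its own relatives of the cytosolic families: Hspa5 (BiP) for HSP70, Hsp90b1 (GRP94) for HSP90, Hyou1 for HSP110 and Dnajb11 for the J-domain proteins. The comparison between the groups asked whether ER stress was accompanied by a cytosolic heat shock response.

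Promoter letters of the cytosolic and the ER genes are shown first. RefSeq windows of 250 bases before and 50 bases after a transcription start (GRCm38.p6) were found for 7 of the 10 cytosolic genes and 6 of 7 ER genes. Hspa8, Hsp90aa1, Hsp90ab1 and the ER gene Hyou1 had no window and were not searched. Each was searched on both strands for a paired heat shock element (GAANNTTC or TTCNNGAA) and for the ER stress element (CCAAT, then any 9 bases, then CCACG). The pair occurred in 5 of the 7 cytosolic genes, 0 of the 6 ER genes and 15.1% of all 32851 windows. Dnajb1 and Ahsa1 were the cytosolic genes without it, and at a share of 15.1% a count of 0 in 6 is ordinary. The ER stress element occurred in 0 of the 7 cytosolic genes, in 3 of the 6 ER genes and in 0.119% of all windows. A gene was counted if any of its windows matched, while the shares are of single windows, so the units differ. Hspa1a and Hspa1b, near-copies in this region, were counted separately. Capitals mark the matches in these stretches, written 5′ to 3′ on the strand of the gene. Hspa1a and Hspa1b come from chr17:34972233-34972280 and chr17:34959315-34959362 (minus strand), Hspb1 from chr5:135887782-135887849 (plus), Dnajc3 from chr14:118937807-118937865 (plus) and Hsp90b1 from chr10:86705513-86705676 (minus).
Hspa1a: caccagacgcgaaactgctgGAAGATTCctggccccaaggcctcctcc
Hspa1b: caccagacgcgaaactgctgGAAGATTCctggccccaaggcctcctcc
Hspb1: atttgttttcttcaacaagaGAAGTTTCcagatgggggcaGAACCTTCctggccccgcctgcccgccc
Dnajc3: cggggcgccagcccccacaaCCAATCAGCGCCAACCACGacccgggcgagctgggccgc
Hsp90b1: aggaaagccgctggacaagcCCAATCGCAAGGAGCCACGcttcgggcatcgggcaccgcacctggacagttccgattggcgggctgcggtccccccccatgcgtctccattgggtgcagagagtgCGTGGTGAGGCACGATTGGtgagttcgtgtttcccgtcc
Hspa1a and Hspa1b read the same over this stretch, and 247 of their 250 bases before the start are identical. Dnaja1 held the pair GAAAATTC, Hsph1 held TTCTCGAA before its start, and Hspa5 held the ER stress element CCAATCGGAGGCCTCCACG. A triple repeat, with a further GAA or TTC unit after the same gap of 2 bases (it contains the pair), occurred in Hsph1, after the start, and in 0.603% of windows. Such matches are letters in a window and show no binding.

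Gene reads per library ranged from 7996454 to 30321152. Rn45s, the ribosomal RNA precursor, took 5.18% to 38.6% of them, with untreated NIP 36 h replicate 1 (38.6%) and CPA-treated NIL 36 h replicate 2 (38.3%) highest. All 10 neuronal markers were detected in every group, and in each group their summed level was at least 2051 CPM (counts per 1000000 gene reads, scaled for library composition) in each library. Markers of other cells were present too. The summed level of 9 endoderm and endothelium markers ran from 135 CPM in CPA-treated NIP at 36 h (replicate 1) to 12242 CPM in CPA-treated NIL at 36 h (replicate 2), and 10 pluripotency markers summed to 79.4 to 419 CPM. Replicate numbers marked a difference that ran through both lines. With the replicate number in the model, 9 of 10 pluripotency markers, 10 of 10 proliferation markers and 9 of 9 endoderm and endothelium markers were higher in replicate 2 libraries, and 10 of 10 neuronal markers were lower. Of all tested genes, 49.2% passed between the replicate sets in that model.

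The 10 genes spanned more than 3 orders of abundance. Per kilobase of exon, the median over 20 libraries was 841 CPM per kb for Hsp90ab1, 726 for Hspa8 and 356 for Hsp90aa1, each range overlapping the next. A gap followed: Dnaja1 had a median of 72.2 and Ahsa1 of 46.6, which overlapped each other. After another gap came Hsph1 (15.2), Dnajb1 (14.4), Hspb1 (2.75), Hspa1b (0.422) and Hspa1a (0.387), each overlapping the next. The constitutive chaperones were thus abundant in these cells, and the classic inducible pair Hspa1a and Hspa1b was near the floor.

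Sequence copies limit several of these counts, because reads that map to more than 1 place were left uncounted. Of the 75-base stretches in the transcripts, 62.4% of those of Hspa8 also occur in a transcript of another gene, mostly the copy Gm15459. The share was 61.7% for Hspa1a and 55.8% for Hspa1b, which mostly match each other, 46.4% for Hspb1 (Hsp25-ps1), 45.5% for Hsp90aa1, 24.6% for Dnaja1 and 10.3% for Ahsa1. It was 0.664% for Hsp90ab1 and 0% for Hsph1 and Dnajb1. Read length was not given in the sources used here, so 75 bases is an assumed length.

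**Figure D1:**
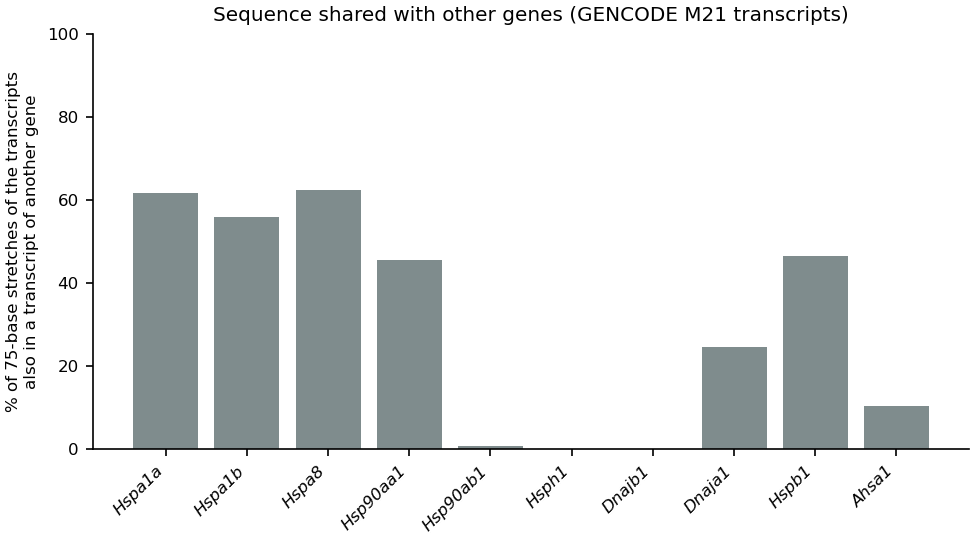
Share of 75-base stretches of each gene's transcripts (GENCODE M21) that also occur in a transcript of another gene, in percent. Hspa8, Hspa1a and Hspa1b stand highest (55.8% to 62.4%), and Hsph1 and Dnajb1 are at 0%.

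In the model without the replicate number, no cytosolic heat shock gene passed in any single CPA contrast. In NIL given CPA for 12 h, 0 of the 10 passed edgeR's quasi-likelihood test in either direction at a Benjamini-Hochberg adjusted p below 0.05, where 2.21% of all tested genes passed. The count was again 0 in NIL at 36 h (0.98% of all genes), in NIP at 12 h (4.71%) and in NIP at 36 h (2.33%). At such shares, 0 of 10 does not set these genes apart. At an unadjusted p below 0.05 there were 2, 1, 1 and 0 of the 10, against 13.6%, 17.2%, 17.2% and 13.5% of all genes. The median log2 change of the 10 was -0.27, -0.07, -0.17 and -0.32 in the same order, beside -0.03, 0.01, -0.01 and 0.03 over all genes. DESeq2 called 2 values over the 4 contrasts. It gave no adjusted p for Hspa1a and Hspa1b in NIL at 36 h (log2 changes of 0.995 and 2.37), so it did not judge them. The model with the replicate number as a block called 5 of the 40 member values. Values called in either way are named with their genes. Among the 5, Hspa1b in NIL at 36 h was higher, and the values of Hspa8 and Dnaja1 were lower. The blocked model called 7.94%, 18.2%, 14.1% and 10.3% of all genes in the 4 contrasts. By library, both CPA libraries lay below both untreated ones for 6 of the 10 in NIL at 12 h (19.9% of all genes), 2 in NIL at 36 h (22.4%), 4 in NIP at 12 h (27.9%) and 2 in NIP at 36 h (20.3%). They lay above them for 0 (17.8%), 2 (21%), 2 (27.1%) and 0 (20.9%). Hspa8, Hsp90ab1, Hsph1 and Ahsa1 lay below in both lines at 12 h. Those above were Dnajb1 and Hspa1b in NIL at 36 h, and Dnajb1 and Hspa1a in NIP at 12 h. In a bulk library, fewer cells of a type and less RNA per cell cannot be told apart.

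**Figure D2:**
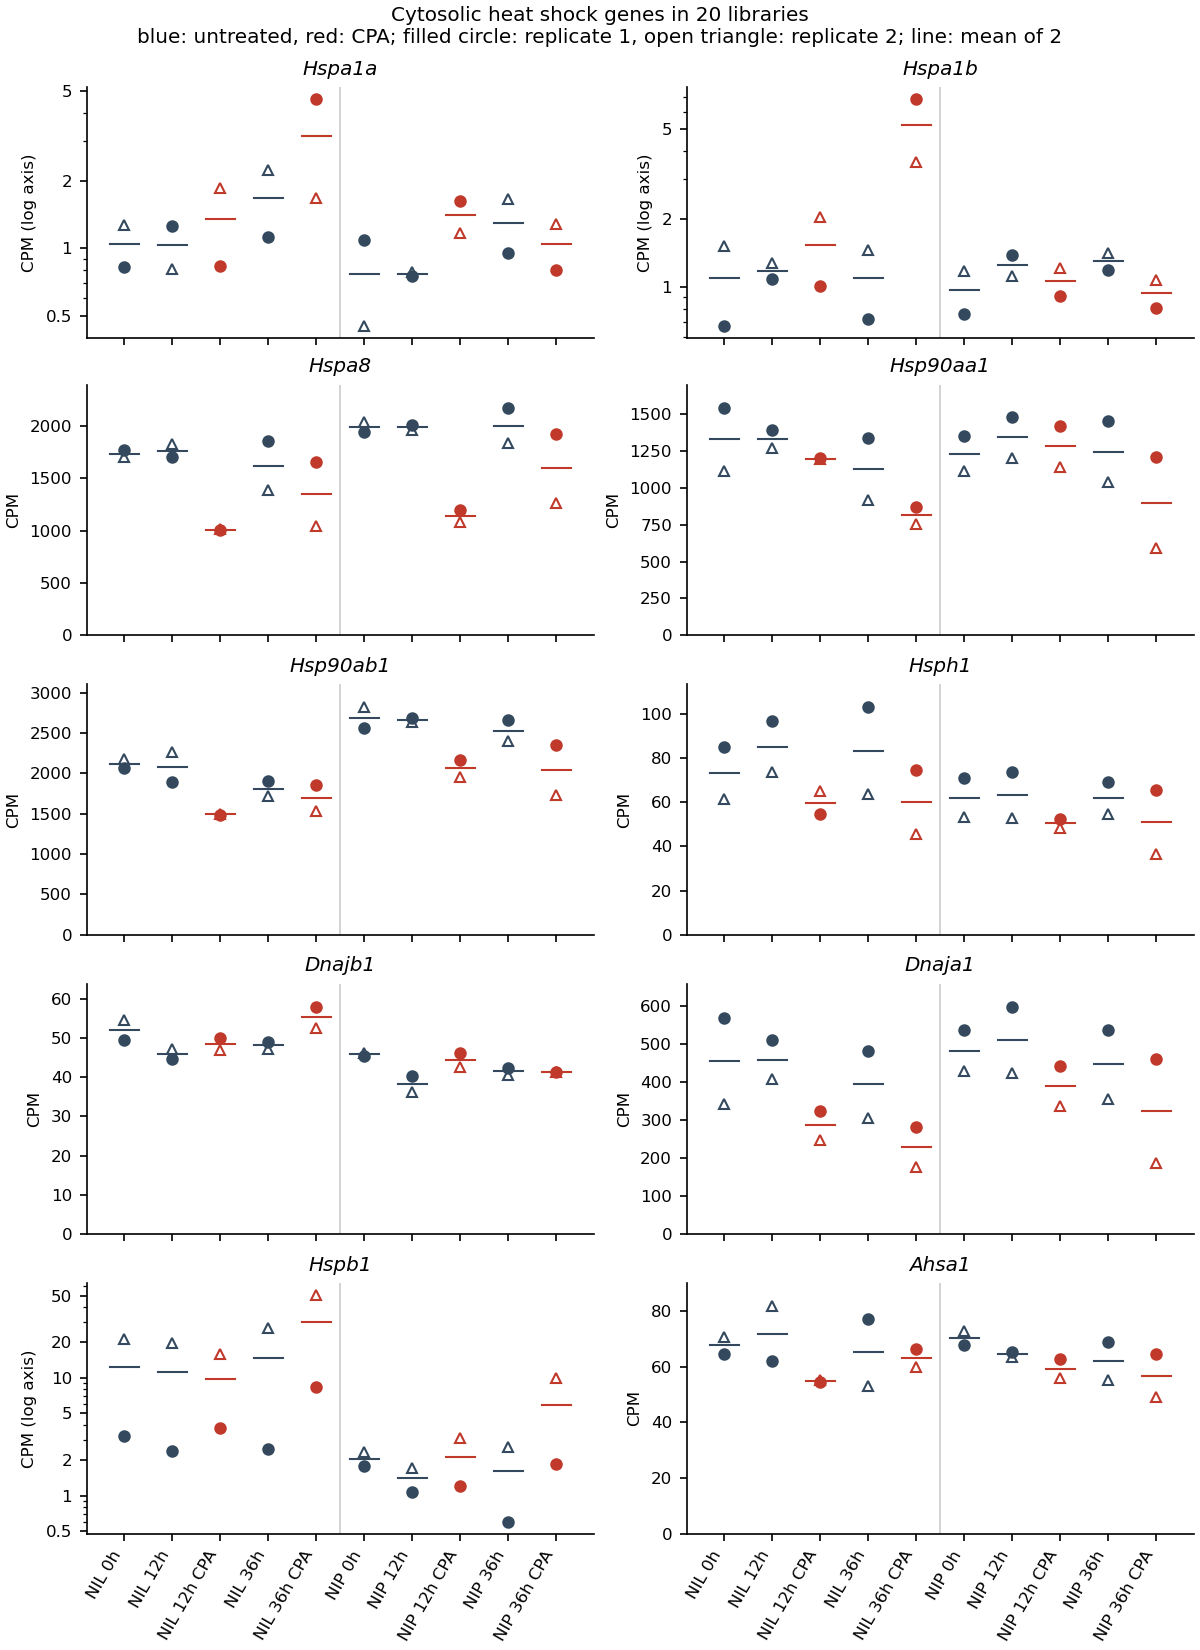
Level of each of the 10 genes in every library, in CPM (log axis for Hspa1a, Hspa1b and Hspb1, axes from 0 otherwise), with blue for untreated, red for CPA, circles for replicate 1, triangles for replicate 2 and a line at the mean of 2. The 4 libraries with 12 h of CPA hold 1006 to 1196 CPM of Hspa8, below all others except 1 NIL library with 36 h of CPA (1046 CPM), and Hspb1 separates by replicate within NIL.

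Averaged over both lines and both times, 2 of the 10 fell and 0 rose, where 11.3% and 9.84% of all 14792 genes fell and rose (21.1% in either direction). The 2 were Hspa8 and Hsp90ab1, the constitutive members of the HSP70 and HSP90 families. The median change of the 10 was -0.23 on the log2 scale and that of all genes 0.00. With the replicate block 5 fell and 1 rose, among 38.9% of all genes called in either direction. Libraries of the same line, time and replicate number gave a like picture: CPA was lower in 8 of 8 such pairs for Hspa8, Hsp90aa1, Hsp90ab1, Hsph1 and Dnaja1, a pattern that 10.6% of all genes showed. None of the 10 was higher in 8 of 8 pairs, as 9.45% of all genes were. Hspb1 was higher in 7 of 8 and Dnajb1 in 6 of 8, while Ahsa1 was lower in 7 of 8. Hspa1a and Hspa1b were higher in 4 of 8. Shares of all genes were not counted for these patterns.

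Hspa8 encodes HSC70, the constitutive HSP70 that folds new proteins and strips clathrin from vesicles (chromosome 9, 40800984 to 40810087, plus strand, GRCm38). In NIL it stood at 1769 and 1707 CPM at 0 h, at 1707 and 1825 CPM at 12 h and at 1853 and 1391 CPM at 36 h without drug. With CPA the NIL libraries held 1006 and 1016 CPM at 12 h and 1655 and 1046 CPM at 36 h. The 12 h groups did not overlap and the 36 h groups did. In NIP the untreated libraries held 1946 and 2035 CPM at 0 h, 2008 and 1966 CPM at 12 h and 2176 and 1835 CPM at 36 h. With CPA they held 1196 and 1082 CPM at 12 h and 1923 and 1269 CPM at 36 h, again without overlap at 12 h only.

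The log2 change of Hspa8 at 12 h was -0.80 ± 0.25 (standard error) in NIL and -0.80 ± 0.25 in NIP, or 0.572 and 0.573 times the untreated level (95% intervals 0.393 to 0.834 and 0.394 to 0.835). These values had adjusted p = 0.139 and 0.0966 in edgeR's test. They passed with the replicate block (adjusted p = 0.0244 and 0.0157) and in DESeq2 (adjusted p = 0.0192 and 0.0139). At 36 h the changes were -0.26 ± 0.25 (adjusted p = 0.603) and -0.33 ± 0.25 (adjusted p = 0.636), not beyond the spread between replicates. The mean over the 4 contrasts was -0.55 ± 0.13 (adjusted p = 0.00747), and it passed with each of the 20 libraries left out in turn (adjusted p up to 0.0258). Neuronal markers were lower with CPA as well: their summed level at 12 h went from 7691 and 5885 CPM to 4309 and 2923 CPM in NIL and from 9881 and 7361 CPM to 5793 and 4432 CPM in NIP. On average over the 4 contrasts 6 of 10 neuronal markers fell (9 with the replicate block). Their part in the result for Hspa8 was not tested.

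The HSP90 genes encode the dimeric chaperone of kinases and steroid receptors, Hsp90ab1 the constitutive form (chromosome 17, 45567775 to 45573271, minus strand) and Hsp90aa1 the more inducible one. Hsp90ab1 in NIL went from 1892 and 2270 CPM at 12 h to 1489 and 1495 CPM with CPA, and from 1909 and 1715 CPM at 36 h to 1856 and 1537 CPM. In NIP it went from 2691 and 2637 CPM to 2170 and 1960 CPM at 12 h, and from 2664 and 2397 CPM to 2346 and 1736 CPM at 36 h. The CPA libraries lay below the untreated ones without overlap in 3 of these 4 comparisons, all but NIL at 36 h. The log2 changes ran from -0.48 ± 0.20 (NIL, 12 h) to -0.10 ± 0.20 (NIL, 36 h), and the mean was -0.31 ± 0.10 (adjusted p = 0.0421). That call was kept in 4 of the 20 fits that left out 1 library (adjusted p from 0.0241 to 0.113, the highest without untreated NIP 36 h replicate 1).

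Hsp90aa1 had changes of -0.15 ± 0.32 and -0.07 ± 0.32 at 12 h and of -0.47 ± 0.32 in both lines at 36 h. Its libraries with 36 h of CPA held 873 and 756 CPM in NIL, against 1341 and 921 CPM untreated, and 1209 and 591 CPM in NIP, against 1451 and 1040 CPM. The mean of -0.29 ± 0.16 did not pass (adjusted p = 0.215; 0.0336 with the replicate block). Replicate 2 libraries were lower than replicate 1 libraries throughout, by 0.37 ± 0.09 on the log2 scale. Ahsa1, which stimulates the ATPase of HSP90, ranged from 49.2 to 82.0 CPM over all 20 libraries. Its mean change was -0.17 ± 0.10 (adjusted p = 0.255).

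Hsph1 encodes HSP110, a nucleotide exchange factor that resets HSP70. It held 96.7 and 73.5 CPM in NIL at 12 h and 54.5 and 64.9 CPM with CPA, and 73.7 and 52.8 CPM in NIP at 12 h and 52.5 and 48.2 CPM with CPA, without overlap in either line. At 36 h the groups overlapped in both lines. The mean change of -0.40 ± 0.17 did not pass (adjusted p = 0.107) and did with the replicate block (-0.39, adjusted p = 0.0053).

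The J-domain proteins deliver clients to HSP70, and 2 of them were followed. Dnaja1 (chromosome 4, 40722150 to 40737149, plus strand) went in NIL from 511 and 409 CPM to 325 and 248 CPM at 12 h of CPA, and from 482 and 307 CPM to 283 and 176 CPM at 36 h, without overlap. In NIP it went from 600 and 425 CPM to 443 and 337 CPM, and from 538 and 355 CPM to 460 and 188 CPM, with overlap at both times. Replicate 1 was the higher library in all 10 groups of the plot by library.

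The log2 changes of Dnaja1 were -0.68 ± 0.41 and -0.78 ± 0.41 in NIL, and -0.39 ± 0.41 and -0.46 ± 0.41 in NIP. None passed without the block, and both NIL changes passed with it (adjusted p = 0.0391 and 0.0133). The mean was -0.58 ± 0.21 (adjusted p = 0.0627; 0.000168 with the block and 0.0238 in DESeq2). Dnajb1 encodes HSP40, a sensitive HSF1 target in heat-shocked cells. Its highest library held 1.60 times the CPM of its lowest (58.0 and 36.2 CPM), the smallest such ratio among the 10, and its highest library was CPA-treated NIL at 36 h. Its 4 changes ran from 0.00 ± 0.12 to 0.21 ± 0.12, with a mean of 0.12 ± 0.06 (adjusted p = 0.179; 95% interval of the fold 0.993 to 1.19).

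Hspa1a and Hspa1b are neighbouring single-exon genes for the heat-inducible HSP70 (chromosome 17, 34969190 to 34972156 and 34956436 to 34959238, minus strand). Outside the CPA-treated NIL group at 36 h, Hspa1b stayed between 0.669 and 2.05 CPM, or 10 to 42 reads a library. In that group it held 6.85 and 3.59 CPM (108 and 28 reads), against 0.724 and 1.46 CPM (20 and 15 reads) untreated. The groups did not overlap, and both CPA libraries were above each other library of the study. The log2 change was 2.33 ± 0.52, or 5.02-fold (95% interval 2.29 to 10.98), with an adjusted p = 0.0557 just outside the threshold and 0.00286 with the replicate block. Without CPA replicate 1 of that group the change was 1.77 (adjusted p = 0.113), and without its untreated replicate 1 it was 1.88 (adjusted p = 0.46).

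Hspa1a in the same comparison went from 1.12 and 2.24 CPM to 4.63 and 1.67 CPM, with overlap (0.98 ± 0.59, adjusted p = 0.403). In NIP at 12 h it held 0.756 and 0.790 CPM untreated and 1.63 and 1.17 CPM with CPA, without overlap (0.85 ± 0.59, adjusted p = 0.539). Its changes in NIL at 12 h (0.32 ± 0.60) and in NIP at 36 h (-0.38 ± 0.61) did not pass either. With both genes added up, since they share most of their sequence, the change in NIL at 36 h was 1.64 ± 0.48 (adjusted p = 0.121). Reads that map to both genes stayed uncounted in this sum too. The other 3 CPA contrasts of Hspa1b were 0.37 ± 0.52 in NIL at 12 h, -0.23 ± 0.50 in NIP at 12 h and -0.50 ± 0.53 in NIP at 36 h. The difference of the Hspa1b effect between NIP and NIL at 36 h was -2.83 ± 0.74 and did not pass (unadjusted p = 0.00209, adjusted p = 0.619). The summed endoderm and endothelium markers were 5696 and 12242 CPM in the CPA-treated NIL libraries at 36 h, against 1921 and 7567 CPM untreated, with overlap. These markers also differ between replicate numbers. Within replicate 1 and replicate 2, the log2 difference of Hspa1b (CPM plus 0.5) was 2.59 and 1.06. The marker sum was higher with CPA in both replicates as well. The part of these other cells in the result was not tested.

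Hspb1 encodes HSP27, a small heat shock protein that holds unfolded clients and binds the cytoskeleton (chromosome 5, 135887919 to 135889563, plus strand). It varied more than the other 9, from 0.596 to 51.1 CPM. In NIL the untreated libraries held 3.19 and 21.4 CPM at 0 h, 2.41 and 20.0 CPM at 12 h and 2.50 and 26.8 CPM at 36 h. With CPA they held 3.73 and 16.04 CPM at 12 h and 8.37 and 51.1 CPM at 36 h. The second replicate was several times higher than the first in each NIL group, so every CPA group overlapped its control.

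In NIP Hspb1 held 1.79 and 2.35 CPM at 0 h, 1.08 and 1.72 CPM at 12 h and 0.596 and 2.61 CPM at 36 h. With CPA it held 1.20 and 3.06 CPM at 12 h and 1.86 and 9.90 CPM at 36 h. The CPA effects were -0.15 ± 1.31 and 1.04 ± 1.30 in NIL and 0.62 ± 1.40 and 1.73 ± 1.42 in NIP. None passed, with or without the replicate block. Within replicate 1 and replicate 2, log2 differences of CPM plus 0.5 at 12 h were 0.54 and -0.31 in NIL. In NIP they were 0.10 and 0.68. At 36 h they were 1.57 and 0.92 in NIL and 1.11 and 1.74 in NIP. The mean CPA effect was 0.81 ± 0.68 (adjusted p = 0.434), and with the replicate block it was 0.88 and passed (adjusted p = 0.0335). Hspb1 differed between replicate sets by 2.25 ± 0.27 on the log2 scale (adjusted p = 3.89e-05), higher in replicate 2. The 5 NIL libraries of replicate 2 had both the highest Hspb1 and 3567 to 12242 CPM of summed endoderm and endothelium markers. The NIP libraries of replicate 1 had the lowest marker sums (135 to 324 CPM), with 0.596 to 1.86 CPM of Hspb1. The part of these other cells in the level of Hspb1 was not tested.

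**Figure D3:**
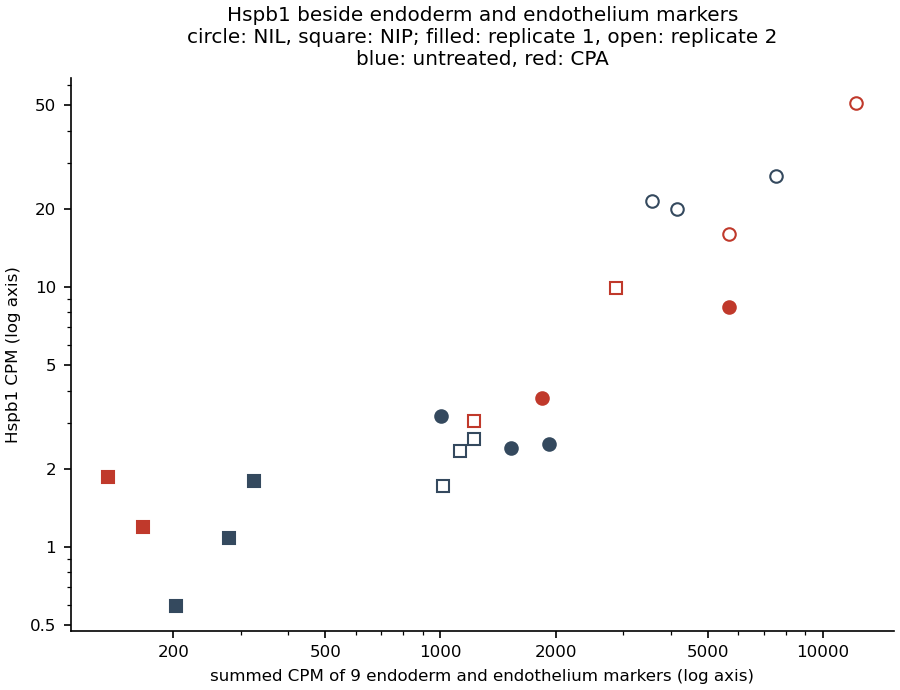
Hspb1 (CPM, log axis) against the summed CPM of 9 endoderm and endothelium markers (log axis) in 20 libraries, with circles for NIL, squares for NIP, filled symbols for replicate 1, open for replicate 2, blue for untreated and red for CPA. NIL replicate 2 libraries (16.04 to 51.1 CPM of Hspb1) lie at the upper right and NIP replicate 1 libraries at the lower left.

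The ER chaperones rose in the same libraries. Of 14 ER chaperones, 11 rose in NIL at 12 h, 10 in NIL at 36 h, 12 in NIP at 12 h and 10 in NIP at 36 h, with medians of 2.32, 1.61, 2.49 and 1.63 on the log2 scale, and 0 fell. With the replicate block 14, 13, 14 and 11 rose. In NIL at 36 h the uncalled change of Hspa1b (2.33) was as large as that of Hspa5 (2.18). On average over the contrasts all 14 rose (median 2.05). Hspa5, the ER HSP70, went from a mean of 383 CPM over the untreated groups at 12 h and 36 h to 2618 CPM with CPA (log2 change 2.66 ± 0.14; adjusted p = 2.1e-07). In NIL at 12 h with CPA it stood at 3825 CPM beside Hspa8 at 1011 CPM, while untreated it had been at 422 CPM beside 1766 CPM. These CPM are not scaled for exon length (3754 bases for Hspa5, 2394 for Hspa8). Shared sequence also leaves Hspa8 undercounted, so the values do not tell which transcript was more abundant. Hsp90b1 rose by 2.47 ± 0.17, Hyou1 by 2.31 ± 0.13 and Dnajb11 by 1.52 ± 0.12.

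**Figure D4:**
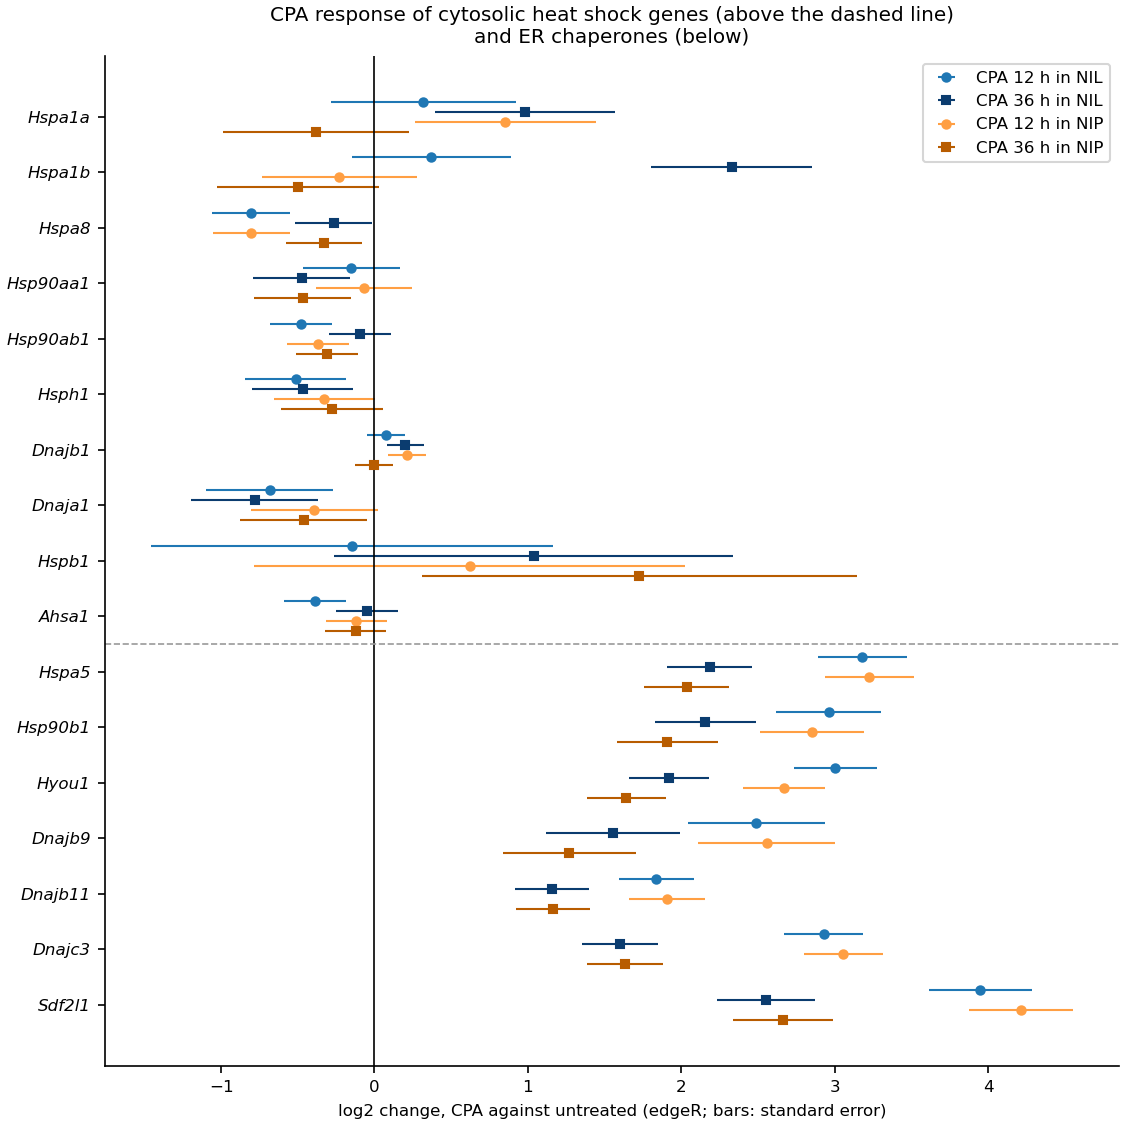
Log2 change with CPA against untreated in each line and time for the 10 cytosolic genes (above the dashed line) and 7 ER chaperones (below it), as points with standard errors from the edgeR model. The ER genes lie between 1.16 and 4.21 and 7 of the 10 cytosolic genes between -0.80 and 0.21. Hspa1a, Hspa1b and Hspb1 lie between -0.50 and 2.33, so Hspa1b in NIL at 36 h and Hspb1 in NIP at 36 h fall within the range of the ER genes.

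Each ER gene was then set against its cytosolic relative inside every library. The ratios are of CPM without exon length, so their size does not rank the transcripts. The ratio of Hspa5 to Hspa8 was 0.140 to 0.350 in the 8 untreated libraries at 12 h and 36 h and 0.707 to 4.41 in the 8 CPA libraries, a mean difference of 9.32-fold. Hsp90b1 relative to Hsp90ab1 went from 0.114 to 0.298 untreated to 0.544 to 3.10 with CPA (6.85-fold). Hyou1 relative to Hsph1 shifted by 6.58-fold and Dnajb11 relative to Dnajb1 by 2.61-fold, also with no overlap between the 8 and 8 libraries. For each of the 4 pairs the two-sided exact permutation test over 1296 relabellings within line and time gave p = 0.00154, the smallest it can give (0.00154 after Benjamini-Hochberg adjustment over the 4). The 7 ER genes named and the 4 pairs were chosen because ER stress is known to raise the ER genes. That choice made full separation likely beforehand, and the test says nothing of the cytosolic gene alone.

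**Figure D5:**
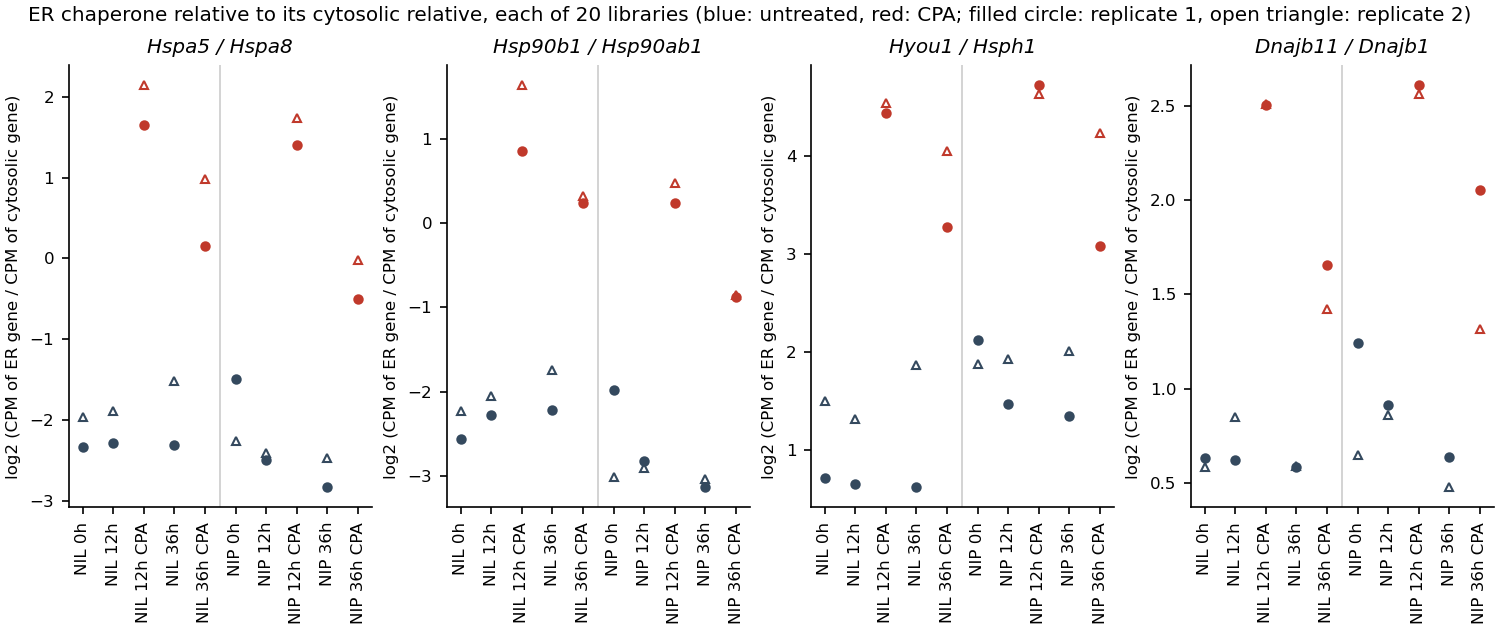
Log2 ratio of an ER chaperone to its cytosolic relative (CPM over CPM) in each of 20 libraries for 4 pairs, with blue for untreated, red for CPA, circles for replicate 1 and triangles for replicate 2. CPA libraries lie above the untreated libraries of 12 h and 36 h in all 4 panels, furthest for Hspa5 with Hspa8.

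A wider list of the cytosolic chaperone network, with mitochondrial HSF1 targets, was read the same way. Of 61 listed, 59 were tested, and 1, 0, 2 and 2 passed in the 4 CPA contrasts, each of them higher. Of all genes 2.21%, 0.98%, 4.71% and 2.33% passed in either direction. With the replicate block the counts were 2 higher and 1 lower, 2 and 5, 3 and 2, and 3 and 3. The block called 7.94%, 18.2%, 14.1% and 10.3% of all genes. On average over the contrasts 4 rose and 3 fell (7 and 17 with the block), with a median of -0.09. Among all genes 9.84% rose and 11.3% fell, and with the block 2694 and 3058 of 14792 did. The heat shock factors Hsf1 (0.11 ± 0.15) and Hsf2 (-0.03 ± 0.11) did not pass. Bag3, a co-chaperone and HSF1 target, had a mean change of 0.21 ± 0.33, and 0 of 8 subunits of the chaperonin TRiC passed (median -0.20), although 3 of the 8 were lower with the replicate block.

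The genes of the network that rose on average were Hspa9, Hspb6, Hspa2 and Dnajc21. Hspa9, which encodes the mitochondrial HSP70 mortalin, went from 196 and 232 CPM to 478 and 486 CPM in NIL at 12 h, and its mean change was 1.02 ± 0.10 (adjusted p = 1.48e-05). Its mitochondrial partners Hspd1 (-0.10 ± 0.12) and Hspe1 (0.06 ± 0.11), which encode the chaperonin HSP60 and its lid, did not pass. Hspb6, a small heat shock gene at 1.77 CPM untreated, rose by 1.72 ± 0.20 (adjusted p = 7.77e-05). Hspa2, a testis-rich HSP70, rose by 0.46 ± 0.14 and the J-domain gene Dnajc21 by 0.34 ± 0.11. The genes that fell were Hspa12a, a distant HSP70 relative (-1.12 ± 0.23), Cdc37, the kinase co-chaperone of HSP90 (-0.37 ± 0.09), and Bag4, a regulator of HSP70 (-0.44 ± 0.14).

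The line comparison asked whether cranial and spinal cells differ in these chaperones. The untreated lines also differed in markers of other cells, by the model with the replicate block. In NIP 10 of 10 proliferation markers were lower at each time. Of 9 endoderm and endothelium markers 3, 8 and 9 were lower at 0 h, 12 h and 36 h. Of 10 pluripotency markers 7 were lower at each time, and 1 was higher at 36 h. The part of these cells in the line differences was not tested. Without drug and without the replicate block, 0 of 10 passed between NIP and NIL at 0 h, 12 h and 36 h. Of all genes 12.5%, 12% and 11.6% passed. With the block 1 of 10 passed at each time (Hspb1, described below). Both NIP libraries lay above both NIL libraries for 2, 2 and 1 of the 10 at the 3 times (26.7%, 27.9% and 27.6% of all genes) and below them for 2, 3 and 1 (24%, 26.3% and 27.2%). Hsp90ab1 was higher in both NIP libraries than in both NIL libraries at each of the 3 times (2562 and 2822 CPM against 2067 and 2177 CPM at 0 h), with log2 differences of 0.34 ± 0.20, 0.36 ± 0.20 and 0.48 ± 0.20. The 36 h value had an adjusted p = 0.148 in edgeR and passed in DESeq2 (0.46, adjusted p = 0.0364). Dnajb1 was lower in NIP at each time, also without overlap (-0.18 to -0.26, each ± 0.12; adjusted p from 0.198 to 0.394).

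Hspb1 had the widest line differences, -2.56 ± 1.43 at 0 h, -2.96 ± 1.44 at 12 h and -3.04 ± 1.45 at 36 h, and passed at none (adjusted p from 0.205 to 0.295). Its lines did not overlap at 0 h and at 12 h. With the replicate block the 3 differences were -1.99, -2.42 and -2.89, and all passed (adjusted p = 0.03, 0.0103 and 0.00541), where the blocked model called 26.3%, 27.9% and 28.8% of all genes. In the wider network 4, 3 and 4 of 59 genes were higher in NIP and 0 lower. With the replicate block 8 were higher and 2 lower at 0 h, 6 and 3 at 12 h, and 9 and 2 at 36 h. Hspb8, the small heat shock partner of Bag3, was at 48.6 ± 7.04 CPM in NIP (SD, n = 2) and 3.11 ± 1.24 CPM in NIL at 0 h, a difference of 4.01 ± 0.44 (edgeR adjusted p = 5.4e-05), and it differed by 3.12 ± 0.42 and 2.53 ± 0.42 at the later times. The J-domain gene Dnajb2 (0.85 ± 0.17 at 0 h) and the HSP90 co-chaperone Tomm34 (0.78 ± 0.16) were higher in NIP at all 3 times.

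Over time without drug, 0 of the 10 genes passed in either line, with or without the replicate block. The 12 h against 0 h comparison passed for 0% of all genes in NIL and in NIP, and the 36 h comparison for 0.027% in NIL and 1.29% in NIP. With the block the shares were 0% at 12 h in both lines, and 0.94% in NIL and 9.09% in NIP at 36 h. A count of 0 in 10 is near these shares. Hspa8 had changes between -0.10 and 0.02, each ± 0.25, over these 4 comparisons. No CPA effect on the 10 differed between the lines or between the times by the interaction test, which passed for 0% of genes between lines at 12 h and at 36 h, 0.00676% between times in NIL and 0.0135% in NIP. For Hspa8 the effect at 36 h was above that at 12 h by 0.54 ± 0.35 in NIL and 0.47 ± 0.35 in NIP, within the spread. The Hspa8 effect in NIP minus that in NIL at 12 h was 0.00 ± 0.35.

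Genes whose level most resembled that of a member were listed by Pearson's r over the 10 group means of log2 CPM, out of all tested genes. For Hspa8 they were Tubb2b, a neuronal tubulin (r = 0.98), Mapk3, the kinase ERK1 (0.98), and Pex19, a peroxisome import factor (0.97). For Hsp90ab1 the first was Pgd of the pentose phosphate pathway (0.98), for Dnaja1 Idh1, the cytosolic isocitrate dehydrogenase (0.99), and for Hsph1 Atat1, the tubulin acetyltransferase (0.97). For Hspb1 it was Cdc42bpg (0.99), for Hspa1a Tmem38b, an ER potassium channel (0.97), and for Hspa1b Mettl21a, which methylates HSP70 proteins (0.94). The group means share line, treatment and composition, and with 10 means and 14792 candidates such high values are a description only.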

How the data were processed

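For 20 libraries (10 groups of 2) the authors deposited counts of reads on 24421 gene symbols. Per the labels' protocols, total RNA was taken with DNase digestion and libraries were made after depletion of ribosomal RNA. HTSeq 0.6.1p1, TopHat2 2.1.1, Picard, Bowtie2 2.3.2 and the build GRCm38 (mm10) come from the submitters' processing notes. Strand setting, annotation release and read length were not given in the sources used here. Reads mapped to more than 1 place (18.2% to 52.6%) stayed uncounted, so genes with close copies are undercounted, and overlapping genes cannot be separated if strands were pooled.

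Groups and replicate numbers came from the titles. Gene reads ranged from 7996454 to 30321152 a library. Replicates differed by more than sampling noise in all groups (chi-square over its degrees of freedom, 31.9 to 336). The filterByExpr filter left 14792 genes, and a single quasi-likelihood model in edgeR 4.0.16 (R 4.3.3, robust, TMM, a mean per group, 10 residual degrees of freedom) gave 16 contrasts with Benjamini-Hochberg adjustment over all tested genes at 0.05. CPM use TMM-scaled library sizes, and ratios use a prior count of 0.5. The biological coefficient of variation was 27.5%. Fold intervals are 95% intervals of the model. DESeq2 1.42.0 was an alternative. The code was tested on simulated data.

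The model without the block was planned as the main one, and the replicate block as an alternative. Deviations of same-numbered libraries correlated in each of 45 group pairs (r from 0.20 to 0.70, median 0.43), so the numbers pair libraries. The blocked model had 9 residual degrees of freedom and a coefficient of variation of 15.7%, against 27.5% without the block. The main model thus ignores this pairing, and its counts of 0 among the members rest on the wider spread. Blocked values stand beside the members and lists whose calls they change. Positions and transcripts are from GENCODE M21, promoters from RefSeq. The genes, pathway lists and markers were chosen with earlier results of these data known, so their direction is no independent support. Named pathway genes were up to 4 per list with the smallest p in the contrast described, besides all 10 members and the stated ER genes. Hspd1, Hspe1, Hsf1, Hsf2 and Bag3 are named whether or not they passed.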

Additional observations from a re-analysis of the deposited data

How the results depend on the processing

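With the replicate block, the member values called over the 4 CPA contrasts went from 0 to 5 (Hspa8 and Dnaja1 in 2 contrasts each, Hspa1b in 1), the members called on average from 2 to 6, and the values called between lines from 0 to 3 (Hspb1 at each time). DESeq2 called 2 values over the CPA contrasts (Hspa8) and 1 between lines (Hsp90ab1). The count on average was 1 with upper-quartile scaling, without a filter on low counts, without Rn45s and without both libraries of highest Rn45s share. In each of these 4 settings Hsp90ab1 was the call lost (adjusted p = 0.05, 0.166, 0.0544 and 0.189) and Hspa8 the call kept. Leaving out 1 library at a time gave 0 called members in the CPA contrasts, between lines, with time and in the interactions, and 1 to 5 on average, the 5 without CPA-treated NIP 36 h replicate 1. Hsp90ab1 lost its call in 16 of those 20 fits (adjusted p 0.0241 to 0.113 over the 20). No called value changed sign. The exact permutation test of the ratios within replicate pairs (256 relabellings) gave p = 0.00781, the smallest possible. Upper-quartile scaling moved the median of all genes from 0.01 to 0.11 for 36 h of CPA in NIL, and from -0.01 to -0.11 between lines at 12 h. DESeq2 gave no adjusted p for 6 of 160 member values. All 6 were of Hspa1a and Hspa1b, in the CPA contrast of NIL at 36 h and the interactions that use it. The mean over both lines was not run with each line fitted alone. Below about 1 CPM (Hspa1a, Hspa1b and Hspb1 in NIP) a library held as few as 5 reads, which limits those folds.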
